A study of Mus musculus with 31 samples.

Results

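The interleukin 1 axis, the NLRP3 inflammasome and tumour necrosis factor were described through 10 genes, Il1a, Il1b, Il1rn, Il1r2, Il18, Nlrp3, Casp1, Pycard, Tnf and Ptgs2. The genes were chosen by name, with earlier results of these data known. Each of the 10 symbols matched 1 Ensembl identifier among the 47069 genes of the deposited tables. They were followed in 31 single cells, and again in the 20 of these cells in which the myeloid lysozyme gene Lyz2 reached 1000 FPKM. FPKM is a read count scaled to transcript length and library depth, so levels of different genes can roughly be set side by side on it. The length assigned to 1 gene can differ between cells, as described below for Nlrp3.

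The cells came from right lung lobes of 10-week-old mice that carried a Csf1r-GFP reporter, 7 days after a sham operation in which the chest was opened. Csf1r encodes a growth factor receptor of monocytes and macrophages, and the reporter marks cells that transcribe it. The cells were sorted as positive for CD45, the Csf1r reporter and F4/80, and are labelled as macrophages. The label also names Ly6G without a sign. They were captured singly on a Fluidigm C1 chip. Every cell carried the same genotype, treatment and time, and the labels name no animal and no unoperated control, so the 31 cells were treated as 1 sample. No test was made, and every interval below is an exact Clopper-Pearson 95% interval that covers counting error over cells only.

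Interleukin 1 alpha and interleukin 1 beta are inflammatory cytokines made by activated monocytes and macrophages. Interleukin 1 beta and interleukin 18 are made as inactive precursors, and the inflammasome, which in this case consists of the sensor NLRP3, the adaptor ASC (encoded by Pycard) and the protease caspase-1, cleaves them into their active forms. The receptor antagonist (Il1rn) and the decoy receptor (Il1r2) hold interleukin 1 in check. Tumour necrosis factor (Tnf) is a second early cytokine of the same cells, and cyclooxygenase 2 (Ptgs2) is the inducible enzyme of prostaglandin synthesis. The data are of RNA and do not show cleavage or release of the proteins.

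Depth, as the sum of expected counts (read numbers that RSEM estimated per gene), was 120835 to 4059833 in the 31 cells and 521492 to 4059833 in the 20. The 20 cells had 87.4 to 95.6% of counts on nuclear protein-coding genes. Of the other 11, 10 had 32.8 to 61.6%, and F11 had 87.9% but 0 FPKM of Lyz2. The lowest Lyz2 value inside the minimum was 1229 FPKM in C7, and the highest outside it was 553 FPKM in D10. In the 20 cells Tyrobp, Fcer1g and Csf1r were present in 20 cells, Ptprc (CD45) in 19 and Adgre1 (F4/80) in 15. A gene counts as present, or held by a cell, at 1 FPKM or more. A gene that is not present lay under this line, which is not proof of absence. The line depends on length and depth and is not the same as having no reads. Ptgs2 in F11 lay under it with 3 expected counts (0.64 FPKM), while Il1rn in F8 lay above it with 1 (1.76 FPKM). RNA lost while it was copied and amplified would also read as 0, and such loss was not measured. Of 9 alveolar macrophage markers, 8 were present in none of the 31 cells, among them Siglecf and Marco. The remaining marker, Ear2, reached 4258 FPKM among the 20 cells and 604 FPKM among the other 11.

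Il1b, Nlrp3 and Tnf were the members found most widely in the 20 cells, at 16, 16 and 15 cells. Casp1 and Pycard followed at 12 each, Ptgs2 at 10 and Il1rn at 8, whereas Il1r2 and Il18 were found in 3 cells each and Il1a in 2. All 10 members were present in at least 1 of the 20 cells, which held for 23% of the 47069 genes, and 6 of the 10 were present in at least 10 cells, against 3.04% of genes. The median member was present in 11 of the 20 cells, against 0 for all genes and 3 for genes present in any of these cells. Because the members were chosen with earlier results of these data known, these contrasts are descriptions and not a test. Cells held 1 to 8 of the 10 members (median 5). E7 held 8 members, all but Il1a and Casp1, while F1 held Casp1 alone.

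**Figure D1:**
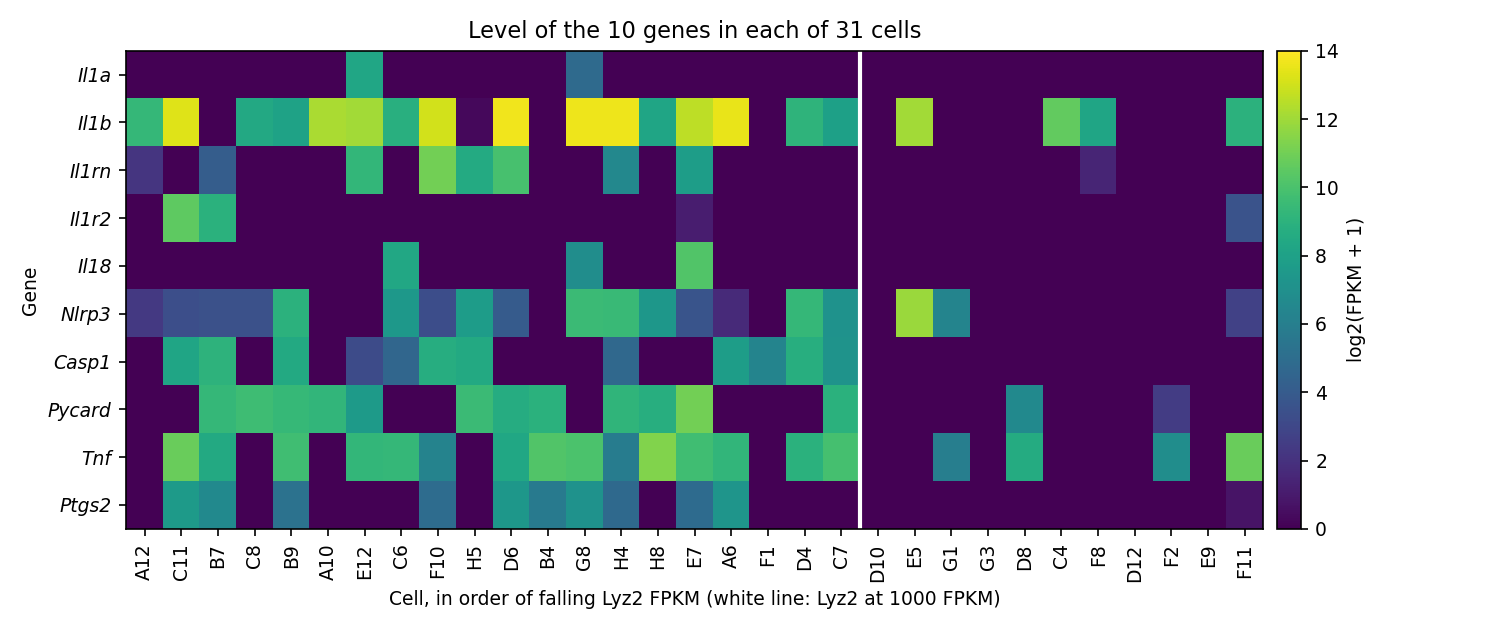
Levels of the 10 genes (rows) in each of the 31 cells (columns, in order of falling Lyz2 FPKM), as log2(FPKM + 1) by colour. Right of the white line, where Lyz2 is under 1000 FPKM, the 11 cells hold 0 to 4 of the 10 genes, against 1 to 8 on the left.

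The sequence before the start site is shown for Il1b, Tnf and Ptgs2, because the co-detection described below turns on these 3 genes. The table of RefSeq promoters (build GRCm38.p6) matched all 10 members with 13 start sites. Each sequence is the 250 bases before the start site on the gene's strand. Capitals mark matches on either strand to the TATA box, searched as TATAAA. They also mark the motif of C/EBP factors, searched as TTNCNNAA. The third motif in capitals is the PU.1 core, searched as GAGGAA. The other 3 motifs searched, the NF-kappa B consensus, CGTCA (the core of the cyclic AMP response element) and TGANTCA (AP-1), had no match in these 3 windows. The Il1b window is chr2:129371140-129371389, minus strand. The Tnf window is chr17:35202008-35202257, minus strand. The Ptgs2 window is chr1:150099781-150100030, plus strand.
Il1b: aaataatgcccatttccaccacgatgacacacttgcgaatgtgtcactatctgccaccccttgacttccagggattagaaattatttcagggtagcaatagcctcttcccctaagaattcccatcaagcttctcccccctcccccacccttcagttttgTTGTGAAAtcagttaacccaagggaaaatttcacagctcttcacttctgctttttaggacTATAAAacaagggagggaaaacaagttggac
Tnf: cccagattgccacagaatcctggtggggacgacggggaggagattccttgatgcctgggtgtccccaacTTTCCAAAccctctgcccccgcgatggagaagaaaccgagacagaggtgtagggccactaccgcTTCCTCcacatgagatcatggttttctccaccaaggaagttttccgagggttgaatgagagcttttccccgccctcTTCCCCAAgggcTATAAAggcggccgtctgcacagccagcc
Ptgs2: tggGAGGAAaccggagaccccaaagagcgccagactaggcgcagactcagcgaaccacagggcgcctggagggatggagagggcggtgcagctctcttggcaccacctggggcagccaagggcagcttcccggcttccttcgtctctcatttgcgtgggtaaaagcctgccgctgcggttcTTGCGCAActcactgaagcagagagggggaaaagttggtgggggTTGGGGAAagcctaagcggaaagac

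A TATA box began 31 bases before the start of Il1b, 29 bases before that of Tnf and 32 bases before that of Il1a, and none was found in the Ptgs2 window. TATAAA occurred in 4 of the 13 member windows and in 12.4% of all 32851 promoter windows in the table. The C/EBP motif occurred in 9 of the 13 and in 36.8% of all windows, and GAGGAA in 6 of the 13 and 23.3%. The windows with the C/EBP motif belong to Il1a, Il1b, Il1rn, Nlrp3, Ptgs2, Pycard and Tnf, and some genes have more than 1 window. The Il1rn windows 24345041-24345290 and 24345121-24345370 overlap and share a match (TTGGGGAA), so the windows are not independent. The NF-kappa B consensus was found in 1 member window, at a start site of Nlrp3, and in 7.25% of all windows. CGTCA was found in 0 and 17.8%, and TGANTCA in 2 and 6.75%. These matches describe the letters in the windows and are no record of binding.

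Il1b fell into separate levels among the 20 cells. Il1b (ENSMUSG00000027398; GRCm38 chromosome 2, 129364570 to 129371139, minus strand) was held by 16 of 20 cells (80%, 56.3 to 94.3%). In 9 cells it lay between 4256 and 13228 FPKM, in 7 cells between 246 and 635 FPKM, and in the last 4 at 0.22 FPKM or less. The cells at the upper level were A10, A6, C11, D6, E12, E7, F10, G8 and H4, with D6 at 13228, G8 at 12795 and H4 at 12586 FPKM. None of the 20 cells lay between 635 and 4256 FPKM. C4, which is outside the 20, stood at 1596 FPKM.

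The levels differed in reads of Il1b and overlapped in depth. Cells at the lower level held 153 to 2010 expected counts of Il1b, and cells at the upper level 4157 to 51816, while their total counts overlapped (521492 to 2701937 and 827611 to 3526674). F1 and H5, with 3183172 and 4059833 total counts, held 0 and 1 count of Il1b. The 3 counts that a count of 0 allows correspond to 0.942 CPM (reads scaled to the depth of the cell) in F1. With every cell thinned to 120829 counts, Il1b was still found in 16 of the 20 cells. The gene Il1bos lies on the opposite strand of Il1b, and the library type does not mark strand, but Il1bos was present in none of the 20 cells.

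**Figure D2:**
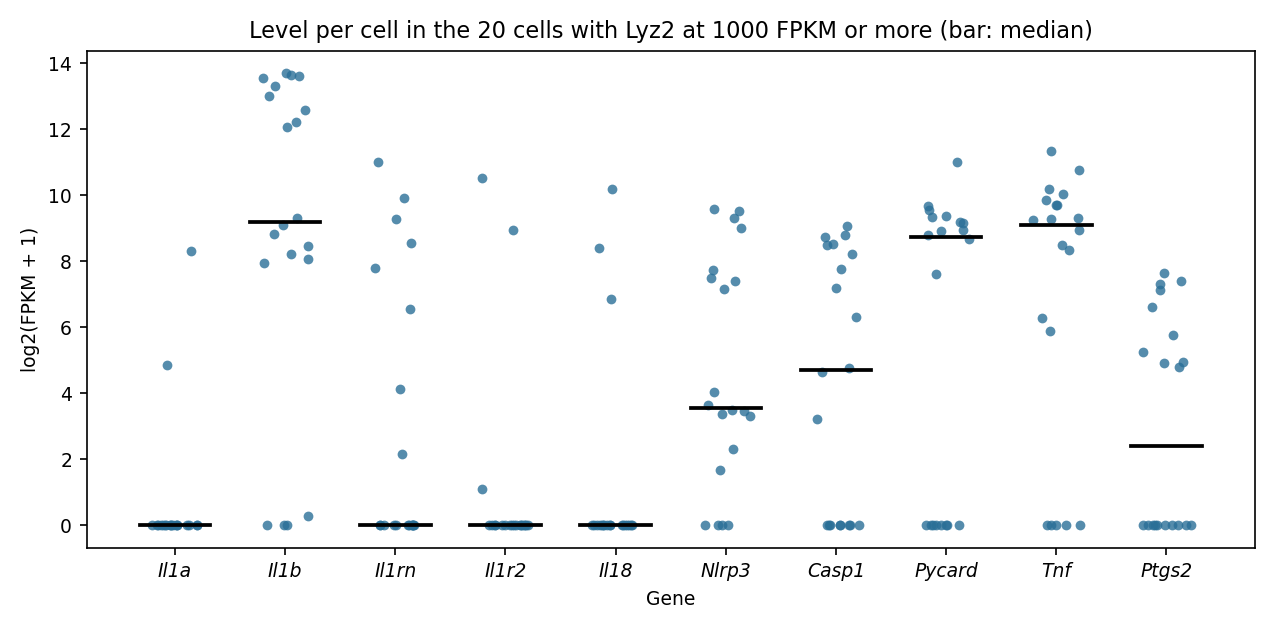
Each point is 1 of the 20 cells with Lyz2 at 1000 FPKM or more, plotted as log2(FPKM + 1) for each of the 10 genes, with a bar at the median (points are spread sideways at random within a gene). Il1b and Nlrp3 show separate groups of cells above 0, and Il1a, Il1r2 and Il18 lie at 0 in at least 17 cells.

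The other interleukin 1 ligand and interleukin 18 were found in few cells. Il1a (ENSMUSG00000027399; chromosome 2, 129299610 to 129309972) was held by 2 of the 20 cells (10%, 1.23 to 31.7%), at 316.5 FPKM in E12 and 27.9 FPKM in G8, and both cells lay at the upper Il1b level. Il18 (ENSMUSG00000039217; chromosome 9, 50554827 to 50581840) was held by 3 cells (15%, 3.21 to 37.9%), at 1156 FPKM in E7, 339 FPKM in C6 and 116 FPKM in G8. All 3 cells with Il18 held Il1b, Nlrp3 and Tnf as well. No cell among the other 11 held Il1a or Il18. Genes that overlap these loci were rare, with Gm14023 (at Il1a) in A10 and H4, neither of which held Il1a, and Bco2 (at Il18) in H5.

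The genes that restrain interleukin 1 were found in fewer cells than Il1b. Il1rn (ENSMUSG00000026981; chromosome 2, 24336853 to 24351494) was held by 8 of 20 cells (40%, 19.1 to 63.9%), at 2052 FPKM in F10, 971 in D6, 620 in E12, 371 in H5, 220 in E7, 93.3 in H4, 16.5 in B7 and 3.49 in A12. The 8 cells thus differed widely in Il1rn level. Part of the order rests on the transcript length assigned in each cell, described below for Nlrp3, which was 928 bases for Il1rn in D6, 1306 in H5, 2300 in B7 and 1803 to 1824 in the other 5 cells. In CPM, E12 stood at 1125, above D6 at 901, and H5 and E7 stood at 485 and 401. Il1b was present in 6 of these 8 cells, and 5 of the 6 lay at the upper Il1b level. H5, which had 1968 expected counts of Il1rn, had 1 count of Il1b. Thus Il1rn was not detected in 10 of the 16 cells with Il1b.

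The decoy receptor gene Il1r2 (ENSMUSG00000026073; chromosome 1, 40074079 to 40125231) reached 1464 FPKM in C11 and 496 FPKM in B7. In E7, the third such cell with Lyz2 at 1000 FPKM or more, it stood at 1.16 FPKM from 2 expected counts. These 3 cells also held Nlrp3, Tnf and Ptgs2. Among the cells with less Lyz2, F11 held Il1r2 at 11.04 FPKM from 15 expected counts. F11 also held Nlrp3 and Tnf, but Ptgs2 was not present there, at 0.64 FPKM. Il1r2 is also known as a gene of neutrophils. The neutrophil genes S100a8, S100a9, Retnlg, Lcn2, Ltf and Camp were at 0 in C11, B7 and E7, where 5 of the 11 neutrophil markers were present. The list summed to 9.35 to 406 FPKM (median 226, 3 genes in the median cell) in these 3 cells, and to 0 to 1768 FPKM (median 9.84, 1 gene) in the other 17. The median was thus higher in the cells with Il1r2, the ranges overlapped, and the part of neutrophil RNA in Il1r2 was not tested. The signalling receptor gene Il1r1 was present in none of the 31 cells, which allows a share of up to 11.2%.

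Tnf was present in nearly as many cells as Il1b, but the levels of both genes did not rank together. Tnf (ENSMUSG00000024401; chromosome 17, 35199381 to 35202007, minus strand) was held by 15 of 20 cells (75%, 50.9 to 91.3%), at 58.0 to 2610 FPKM with a median of 632 FPKM where present. The highest values were 2610 FPKM in H8 and 1749 FPKM in C11, and the lowest were 77.0 FPKM in F10 and 58.0 FPKM in H4. Il1b stood at 297 FPKM in H8 and at 10063 FPKM in C11, and at 8286 and 12586 FPKM in F10 and H4. Spearman's rho between the levels of both genes was 0.03 over the 20 cells, which share 1 chip and differ in depth. Both genes were present together in 13 cells, which is 13 of the 16 with Il1b and 13 of the 15 with Tnf, and 18 of the 20 cells held at least 1 of them. The exceptions were F1 and H5.

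Ptgs2 was found within the cells that held Tnf. Ptgs2 (ENSMUSG00000032487; chromosome 1, 150100031 to 150108227) was held by 10 of 20 cells (50%, 27.2 to 72.8%), at 26.9 to 199 FPKM with a median of 75.2 FPKM where present, from 173 to 1417 expected counts. The highest values were 199 FPKM in C11, 169 in D6 and 159 in A6. All 10 cells with Ptgs2 held Tnf, which is 10 of the 15 cells with Tnf, and the 5 cells without Tnf held no Ptgs2. Nlrp3 was present in 9 of these 10 cells and Il1b in 8. With presence set at 50 FPKM, 6 cells held Ptgs2, of which 6 held Tnf and 4 held Il1b. At the upper Il1b level 7 of 9 cells held Ptgs2, at the lower level 1 of 7 (B9), and 2 of the 4 cells without Il1b did (B4 and B7). Il1b, Tnf, Nlrp3 and Ptgs2 were present together in 8 cells (40%, 19.1 to 63.9%).

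**Figure D3:**
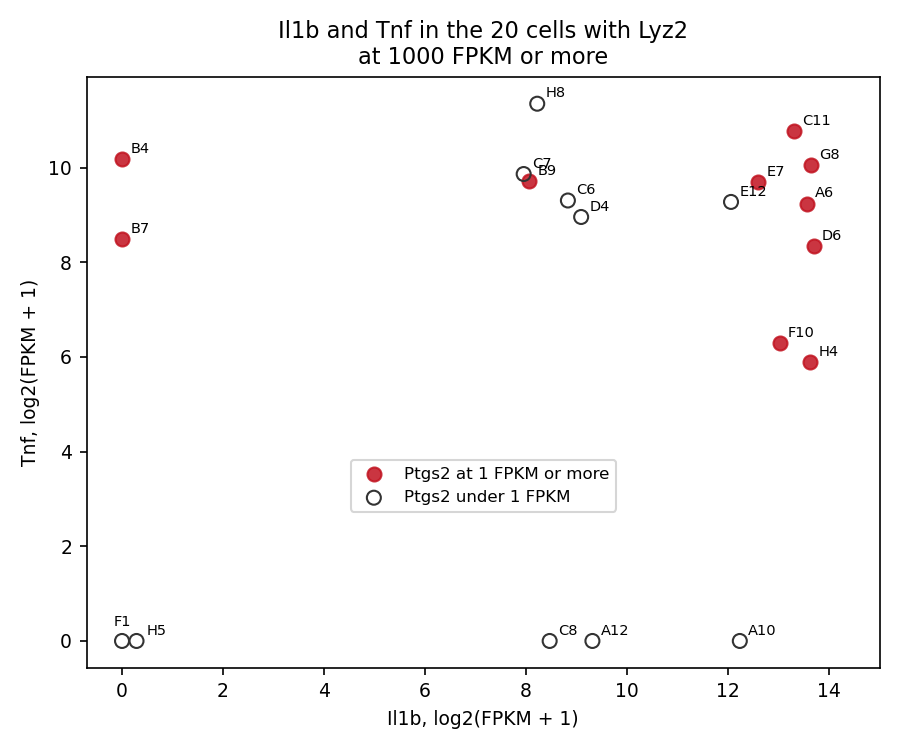
Il1b (x axis) against Tnf (y axis), both as log2(FPKM + 1), in the 20 cells with Lyz2 at 1000 FPKM or more, each labelled by its well, with filled points for the 10 cells with Ptgs2 at 1 FPKM or more. Filled points lie only where Tnf is present, and 7 of them lie at the upper Il1b level on the right.

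The classical monocyte markers had a higher summed median at the upper Il1b level than in the other 11 cells, and the ranges overlapped. Single markers were picked after the values had been seen. Haptoglobin (Hp) was present in 8 of the 9 cells at the upper level, 3 of the 7 at the lower level and 1 of the 4 without Il1b. Chil3 was present in 8, 2 and 2 of these cells, and Ly6c2, of the same list, in 6, 3 and 1. The 9 classical monocyte markers summed to 765 to 18888 FPKM (median 11472) in the 9 cells and to 5.71 to 8247 FPKM (median 707) in the 11. The 10 interstitial macrophage markers summed to 0 to 3721 FPKM (median 849) and 0.94 to 70040 FPKM (median 13879), and C1qa and Pf4 were at 0 in all 9 cells. Of the 11 neutrophil markers 6 (S100a8, Ly6g, Cxcr2, Csf3r, Mmp8 and Ngp) were each present in at least 1 of the 9 cells. The list summed to 5.2 to 1768 FPKM (median 48.2) there, against 0 to 406 FPKM (median 3.37) in the 11. S100a8 and Ngp were at 0 in the 11, and S100a9, Retnlg, Lcn2, Ltf and Camp were at 0 in all 20. The line between the levels was drawn after the values had been seen, and the part of these cell type markers in the Il1b level was not tested.

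By single markers, Il1b was present in 3 of 6 cells with the complement gene C1qb (0 to 453 FPKM) and in 13 of 14 without it (0 to 13228 FPKM), while Tnf was present in 4 of 6 and 11 of 14. Among the 10 cells with the monocyte gene Ly6c2, 9 held Il1b (median 4529 FPKM), against 7 of the 10 without it (median 375 FPKM), and the ranges overlapped.

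The 3 genes of the inflammasome were found together in 5 of the 20 cells. Nlrp3 (ENSMUSG00000032691; chromosome 11, 59541568 to 59566956) was held by 16 of 20 cells (80%, 56.3 to 94.3%). Casp1 (ENSMUSG00000025888; chromosome 9, 5298517 to 5307265) and Pycard (ENSMUSG00000030793; chromosome 7, 127989708 to 127993867) were held by 12 cells each (60%, 36.1 to 80.9%). Every one of the 20 cells held at least 1 of the 3 genes, 5 cells held exactly 1, 10 held exactly 2 and 5 held the whole set (25%, 8.66 to 49.1%). The 5 cells with all 3 were B7, B9, C7, H4 and H5, and Il1b was present in 3 of them (B9, C7 and H4).

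Casp1 ranged from 8.23 to 537 FPKM where present (median 257), and Pycard from 196 to 2057 FPKM (median 578). The highest Casp1 values were 537 FPKM in B7, 444 in D4 and 427 in F10, and D4 and F10 had 0 FPKM of Pycard. The highest Pycard value was 2057 FPKM in E7, which had 0 FPKM of Casp1. Both genes were present together in 6 cells, which is 6 of the 12 with each, and both were missing in 2 cells (A12 and G8). At the upper Il1b level Casp1 was present in 5 of 9 cells and Pycard in 5 of 9. G8, with 12795 FPKM of Il1b and 757 FPKM of Nlrp3, had 0 FPKM of both.

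**Figure D4:**
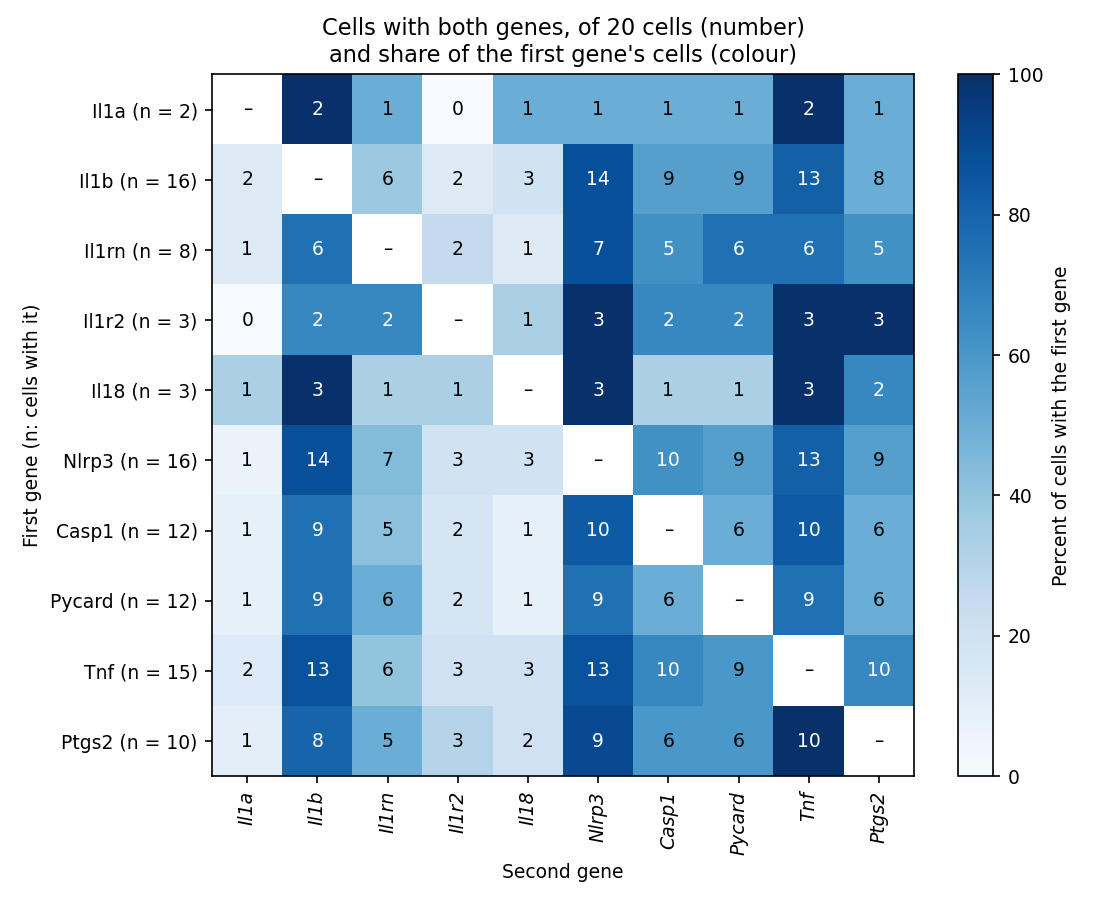
Number of cells, of the 20 with Lyz2 at 1000 FPKM or more, that hold both the first gene (rows, with the number of cells that hold it) and the second gene (columns), coloured by the percent of the first gene's cells. The row of Ptgs2 reaches 10 of 10 for Tnf and 9 of 10 for Nlrp3, and Casp1 and Pycard share 6 of 12 cells.

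Nlrp3 also showed separate levels, and most cells of each level differed in the transcript length implied by count and FPKM. Which transcripts the cells held was not tested. Among the 20 cells Nlrp3 lay between 141 and 757 FPKM in 8 and between 2.22 and 15.5 FPKM in 8 others. None of the 20 lay between 15.5 and 141 FPKM. The line of 50 FPKM used here between the levels was drawn after the values had been seen. In CPM, which takes no account of length, the same cells lay between 69.4 and 593 (median 359) and between 8.16 and 43.96 (median 34.2), so the ranges still did not overlap but lay closer together. The ratio of count to FPKM gives a length for each cell. It follows the transcripts to which RSEM, the program that assigned reads to transcripts, gave the reads. That length was 464 to 2120 bases (median 571) at the upper level and 527 to 3822 bases (median 3753) at the lower level. In GENCODE M21, Nlrp3 has coding transcripts of 3933, 4021 and 676 bases, named Nlrp3-201, Nlrp3-202 and Nlrp3-203. The implied lengths reached below the shortest of these, so they are not the annotated lengths and can be set beside them only roughly.

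D6 was the 1 cell of the lower level with a short length (527 bases), from 16 expected counts. C6 (2120 bases) and B9 (1146 bases) lay between the short and the long lengths. G1, with Lyz2 under 1000 FPKM, lay inside the gap in FPKM. It stood at 79.2 FPKM and 298 CPM, with a long length (3757 bases). A short assigned transcript raises FPKM for the same count, so the distance between the levels in FPKM is partly one of length. Other members differed in how far the assigned length varied. It stayed between 4265 and 4282 bases for Ptgs2 and between 1395 and 1468 bases for Tnf, and for Il1b it was 832 bases in C8 and 1150 to 1185 bases in the other 15 cells that held it. It varied more for Pycard, at 509 to 744 bases, and for Il1rn, at 928 to 2300 bases.

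**Figure D5:**
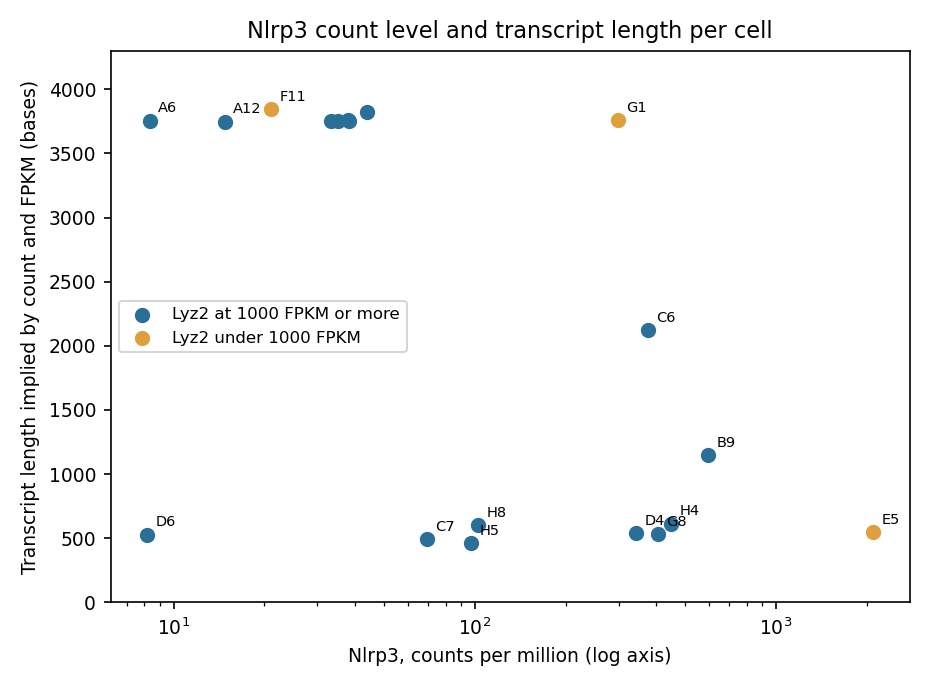
Nlrp3 CPM (x axis, log scale) against the transcript length implied by count and FPKM (y axis, bases) in the 19 cells that hold Nlrp3, with selected cells labelled by well. Cells with 69.4 CPM or more lie at 464 to 2120 bases except G1, and those with fewer lie at 3748 to 3846 bases except D6.

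The 11 cells with Lyz2 under 1000 FPKM held fewer members, 0 to 4 per cell (median 2), although they held more genes in all, with 2141 to 3574 genes present per cell (median 3200) against 1856 to 3523 (median 2415) in the 20. Of the 10 members, 6 were present in at least 1 of the 11 cells, against 23.2% of all genes, and none was present in at least 6 of them, against 4.2% of all genes. Il1b was present in 4 of them, at 4275 FPKM in E5, 1596 in C4, 510 in F11 and 295 in F8. Tnf was present in 4, at 1786 FPKM in F11, 387 in D8, 113 in F2 and 62.1 in G1. Nlrp3 was present in 3, and its value in E5, 3843 FPKM from 682 expected counts, was the highest of the 31 cells. Casp1 and Ptgs2 were present in none of the 11, which allows a share of up to 28.5%. F11 had 3 expected counts of Ptgs2, at 0.64 FPKM. D10, D12, E9 and G3 held no member. The 10 libraries with a low protein-coding share are among these 11, and their lower depth (120835 to 1592301 total counts) and that share were not separated from the absence of members.

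Other ligands of the interleukin 1 family were not detected in the 20 cells. Of the 6 further ligands and antagonists that matched an identifier, 5 were present in none of the 31 cells (Il33, Il36a, Il36b, Il1f10 and the interleukin 18 inhibitor gene Il18bp), and Il36g was present in 7 cells, none of them among the 20. Finding a gene in 0 of 20 cells is compatible with shares as high as 16.8%. The lists that follow were also chosen with earlier results of these data known. Beside them stand all genes, of which 23% were present in at least 1 of the 20 cells and 3.04% in at least 10. Of 14 receptors and signalling genes, 10 (71.4%) were present in at least 1 of the 20 cells and 1 (7.14%) in at least 10. The receptor kinase genes Irak2 and Irak1 were found most often, in 11 and 7 cells at medians of 1.71 and 0.53 FPKM, then Irak4 and the adaptor gene Myd88 in 4 each. Il1r1 and the receptor subunit gene Il18rap were present in no cell. Irak1 and Irak2 were also held by 11 and 10 of the other 11 cells (medians of 12.4 and 6.80 FPKM), and 0.710% of all genes were present in every one of those 11. Presence there rested on as few as 0.99 expected counts of Irak1 and 1.86 of Irak2.

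Among 19 further inflammasome genes, 16 (84.2%) were present in at least 1 of the 20 cells and 2 (10.5%) in at least 10. These 2 were Ninj1, which encodes a protein of membrane rupture in dying cells, and Mefv, which encodes the sensor pyrin, in 11 cells each at medians of 90.4 and 5.51 FPKM. The NLRP3 partner gene Nek7 followed at 9 cells. The sensor genes Nlrp6 and Nlrp12 were present in no cell. The median of the list was 4 of 20 cells, against 11 for the 10 members.

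TNF pathway genes had a list median of 6 of 20 cells. Of 14 genes, 11 (78.6%) were present in at least 1 of the 20 cells and 5 (35.7%) in at least 10. Birc3, which encodes an inhibitor of apoptosis induced by NF-kappa B, was present in 19 cells (median 80.9 FPKM), the NF-kappa B feedback inhibitor gene Tnfaip3 in 16 (94.4 FPKM) and Adam17, which encodes the protease that sheds TNF from the membrane, in 14 (28.8 FPKM). The lymphotoxin gene Lta was present in no cell. Birc3 and Adam17 were also present in 11 of the 11 other cells, at lower medians of 17.4 and 6.76 FPKM.

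Prostanoid genes beside Ptgs2 had a list median of 2 of 20 cells. Of 15 genes, 9 (60%) were present in at least 1 of the 20 cells and 2 (13.3%) in at least 10. Ptges3, a cochaperone that is also a prostaglandin E synthase, was present in 12 cells (median 7.15 FPKM), the prostaglandin E receptor gene Ptger4 in 10 (13.9 FPKM) and Hpgd, which encodes an enzyme that inactivates prostaglandins, in 8. The inducible synthase gene Ptges was present in none of the 31 cells, and neither were Ptges2, Ptgds, Ptger1, Ptger3 and Ptgir.

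Genes that limit cytokine RNA and NF-kappa B signalling were present in most cells. Of 7 such genes, 7 (100%) were present in at least 1 of the 20 cells and 6 (85.7%) in at least 10, with a list median of 16 cells. The inhibitor gene Nfkbia was present in 20 cells, at 721 to 9382 FPKM (median 2368). Zfp36, which encodes tristetraprolin, a protein that destabilises Tnf RNA, was present in 20 cells (median 652 FPKM), and Nfkbiz in 16 (283 FPKM).

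The genes whose levels ranked most like those of a member were sought among 3671 genes present in at least 5 of the 20 cells. For Tnf the closest was the chemokine gene Ccl4 (Spearman's rho 0.84 over 20 cells), which was present in 14 cells, all of which held Tnf, followed by Mtmr6 (0.74), Pnisr (0.68), Ppp1r15a (0.66) and Tnfsf9 (0.66). For Il1b they were Gadd45b (0.77), Rplp0 (0.75), Platr1 (0.74), Eif3e (0.70) and Gm8624 (0.70), and Gadd45b was present in 14 cells, of which 13 held Il1b. For Il1rn they were Capg (0.72), Gm37750 (0.69), Brpf1 (0.69), Psme4 (0.69) and Ndufs5 (0.69). These values are the highest of many, the 20 cells share 1 chip, and no p was computed.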

How the data were processed

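Per the labels' protocols, SMARTer chemistry copied and amplified the polyadenylated RNA of each cell, and Nextera XT, which keeps no strand, turned it into libraries. RSEM, Trimmomatic, CASAVA 1.8 and build GRCm38 are named in the submitters' processing notes. The aligner, annotation release and cell filters are not given in the sources used for this work. The deposited tables hold RSEM expected counts (read numbers estimated by the authors for each gene) and FPKM values, which they scaled to transcript length and mapped fragments. No molecular identifiers were used. Of 75 count columns, 31 matched a sample title and 44 were not used.

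Computed here were presence (FPKM 1 or more), exact Clopper-Pearson 95% intervals, co-detection, CPM, Spearman's rho and the length implied by count and FPKM (Python 3.11.15, pandas 2.3.3, scipy 1.17.1). Gene positions came from GENCODE M21. The ranking of genes by rho was tested on simulated data. The members, 6 pathway lists and 13 marker lists were chosen with earlier results of these data known. Named are all members, the 3 genes of each pathway list present in most of the 20 cells, those present in none of the 31, and the 5 genes with the highest rho for Il1b, Tnf and Il1rn. Other genes named (Hp, Chil3, Il36g, Ly6c2, C1qb, Myd88, Traf2 and Slco2a1) and the lines between Il1b and Nlrp3 levels were chosen after the values were seen. Il36a, Il36b and Il36g were matched through synonyms, and 2 listed symbols (Il36rn and Il37) matched no identifier. Doublets were not called on 31 cells. Alternatives were minimums of 5 and 50 FPKM, expected counts of 1 and 10, counts rounded and thinned to 120829 per cell, other Lyz2 minimums (100 and 5000 FPKM), libraries with at least 80% coding counts, TPM, CPM and Pearson's r with pseudocounts of 1 and 10. All 31 cells, and the 20 without the 2 farthest, were added after the data had been seen.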

Additional observations from a re-analysis of the deposited data

How the results depend on the processing

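Shares of cells with a member, with 10 pairs of members or with Nlrp3, Casp1 and Pycard stayed inside the interval of the reported share in 186 of 189 recomputed values. The intervals are wide at 20 cells, and 21 of the 189 moved by over 1.5 times, 9 of them at the minimum of 50 FPKM and 12 over all 31 cells. The libraries with at least 80% coding counts were the same 20 cells and F11. The 21 shares recomputed in that set could therefore move little. The 3 that left the interval came from 50 FPKM: Nlrp3 fell to 40% of the 20 cells, Il1b with Nlrp3 to 35% and Nlrp3 with Casp1 to 20%. There Ptgs2, and Tnf with Ptgs2, also fell from 50 to 30%, Il1b with Ptgs2 from 40 to 20%, Nlrp3 with Pycard from 45 to 25%, Nlrp3, Casp1 and Pycard from 25 to 15% and Il1a from 10 to 5%. Medians over cells depended on which cells were described, and 13 of 30 recomputed values of the 6 medians above 0 moved by over 1.5 times: with Lyz2 at 5000 FPKM or more the Il1b median was 2445 in place of 589 FPKM, and with 100 FPKM or more that of Pycard was 101 in place of 423 and that of Casp1 0 in place of 24.9. The Lyz2 minimum of 5000 FPKM left out C7 and D4 of the 20 cells. In the libraries with at least 80% coding counts the Ptgs2 median was 0.64 in place of 13.4 FPKM. The added cell F11, at 0.64 FPKM, was itself the middle value there. Of 70 recomputed correlations, 65 kept their sign and 5 turned: Il1b with Tnf to -0.0026 in the libraries with at least 80% coding counts and to -0.022 without the 2 farthest cells, Il1b with Nlrp3 to -0.061 after thinning, and Il1b with Casp1 to 0.034 and Casp1 with Pycard to 0.036 at a Lyz2 minimum of 100 FPKM. Beyond which cells were included, the causes were not tested. No paired analysis was possible because the cells form 1 group.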

Other observations

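Several pathway genes were present in most libraries with Lyz2 under 1000 FPKM, where more genes were present in all (median 3200 per cell against 2415 in the 20). These libraries had a median of 48.9% of counts on nuclear protein-coding genes, against 92.2% in the 20. Presence in them can rest on few reads, for Irak1 on 0.99 to 90.3 expected counts. The part of library quality in these shares was not tested. Presence in at least 6 of these 11 cells held for 4.2% of all genes, and presence in every one of them for 0.710%. Irak1, Adam17 and Birc3 were each present in 11 of these 11 cells, at highest values of 61.4, 12.2 and 117 FPKM, against 7, 14 and 19 of the 20 other cells with highest values of 98.7, 368 and 608 FPKM. Traf2 was held by 8 of the 11 and by 3 of the 20, and Slco2a1 by 6 and by 2. Il36g, the interleukin 36 gamma gene, was present in 7 of the 11 at 8.69 to 101 FPKM and in 0 of the 20. In the same 11 cells Casp1, Ptgs2, Il1a and Il18 were present in none.

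Single cells combined members in ways that the shares do not show. E5, with 324287 total counts and 485 FPKM of Lyz2, held 2 members, Il1b (4275 FPKM) and Nlrp3 (3843 FPKM), and no other. H5, the deepest library, held Il1rn, Nlrp3, Casp1 and Pycard but 1 count of Il1b and 0 of Tnf. F11 had 0 FPKM of Lyz2 with 1786 FPKM of Tnf and 510 FPKM of Il1b.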
